A study of Homo sapiens with 24 samples.

Results

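RAB proteins are small GTPases that act as membrane switches, each marking a compartment of the secretory or endocytic pathway. Genes were taken as members when they code for a protein and their RefSeq symbol is RAB followed by a digit and names a RAB GTPase, which left out RAB-binding proteins and RAB5IF. The rule gave 64 genes of 20056 protein-coding genes, and 40 of them had at least 1 m1A peak in the deposited lists. These 40 genes held 254 peaks of 61237, on 78 transcripts of 17315.

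N1-methyladenosine (m1A) is a methyl mark on the base-pairing face of adenosine, and it was mapped in HEK293T cells, a human embryonic kidney line, by immunoprecipitation of polyadenylated RNA with an anti-m1A antibody (IP). The samples used here were HEK293T cells with ALKBH3 knocked out and no treatment (KO), wild-type cells given 50 µM H2O2 for 30 min (H2O2), wild-type cells kept without serum for 16 h (Starve), untreated wild-type controls of the stress experiment (UT) and untreated wild-type cells of the knockout experiment (WT). All carried the same cell line background, and the sources used here do not say whether the knockout cells were 1 clone. Each of the 5 conditions had 2 IP replicates with 1 peak list each, and KO and WT also had IP material treated with a demethylase, deposited as coverage in windows of 10 nt. By the series' own account, KO against WT asked which sites depend on ALKBH3, and stressed against untreated cells asked which sites stress induces.

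A RAB cycles between a GTP-bound form on membranes, where it recruits effectors such as tethers and motors, and a GDP-bound form that a GDP dissociation inhibitor keeps in the cytosol. Exchange factors load GTP and GTPase activating proteins end the cycle. ALKBH3 is an enzyme of the AlkB family that removes methyl groups from m1A. The mark on messenger RNA is best known from the 5′ part of transcripts, near the start codon and in GC-rich sequence.

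Since repeated RAB peaks lay near the 5′ end (described further on), the sequence around the annotated start is shown for the 5 genes with a 5′ region called in both lists of 1 group and neither list of another, and for RAB5C and RAB6B. Each line holds 30 bases before the start in lower case and the first 30 transcribed bases in capitals, from the RefSeq table of GRCh38.p14. The annotated start may differ from that of the transcripts in the deposited lists. The coordinates are RAB4A chr1:229271081-229271140 (plus strand), RAB13 chr1:153986310-153986369 (minus), RAB7A chr3:128726153-128726212 (plus), RAB32 chr6:146543803-146543862 (plus), RAB43 chr3:129121893-129121952 (minus), RAB5C chr17:42154960-42155019 (minus) and RAB6B chr3:133895853-133895912 (minus).
RAB4A: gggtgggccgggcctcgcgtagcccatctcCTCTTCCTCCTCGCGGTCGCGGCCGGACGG
RAB13: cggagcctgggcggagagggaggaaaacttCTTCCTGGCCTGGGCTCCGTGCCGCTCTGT
RAB7A: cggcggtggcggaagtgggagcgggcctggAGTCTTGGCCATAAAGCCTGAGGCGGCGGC
RAB32: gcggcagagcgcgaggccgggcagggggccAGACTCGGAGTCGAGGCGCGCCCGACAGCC
RAB43: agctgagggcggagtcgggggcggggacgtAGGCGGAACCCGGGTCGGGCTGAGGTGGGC
RAB5C: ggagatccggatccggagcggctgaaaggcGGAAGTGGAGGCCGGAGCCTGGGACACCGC
RAB6B: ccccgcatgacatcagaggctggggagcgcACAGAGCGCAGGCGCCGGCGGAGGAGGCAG

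The capitals differ in base composition: G and C made up 63.3% of the 30 bases in RAB7A and 76.7% in RAB4A, RAB43 and RAB6B. RAB13 had no A and RAB4A had 1 A in these 30 bases, whereas RAB6B had 7. Over the first 50 transcribed bases, the median GC share was 76% in the 11 genes with a repeated 5′ region that the table holds, of 13, and 72% in 25 of the 27 other RAB genes with a peak. It was 62% in 15 of the 24 RAB genes with no peak and 64% in 15843 of all protein-coding genes. The ranges overlapped, running between 56% and 86% in the repeated genes, between 48% and 80% in the others with a peak, and between 38% and 76% in those with no peak.

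The lists differed in size, which bears on every count below. KO lists held 3447 and 3524 peaks, H2O2 lists 7459 and 3903, Starve lists 11362 and 8791, UT lists 7871 and 9295, and WT lists 2175 and 3410. Peak lists give no value to a region that was not called, so absence means not called. ALKBH3 had 0 peaks in the 10 lists, so the lists do not check the knockout. Of 12 markers of other cell types, 1 had a peak (COL1A1, in 2 lists).

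RAB genes were found in every list. The number of RAB genes with a peak was 10 and 12 in KO, 14 and 6 in H2O2, 22 and 20 in Starve, 14 and 16 in UT, and 7 and 12 in WT. As a share of all genes with a peak in the list, these counts ran between 0.297% in the second H2O2 list and 0.589% in the second WT list. The 2 H2O2 lists differed most in RAB count, and their total gene numbers were 3494 and 2017. Of the RAB genes, 62.5% had a peak in any list (Wilson 95% interval 50.3 to 73.3), against 44.1% of all protein-coding genes. Which genes HEK293T cells express was not part of that denominator.

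The 24 RAB genes with no peak were RAB15, RAB17, RAB19, RAB20, RAB25, RAB26, RAB27A, RAB27B, RAB30, RAB33A, RAB36, RAB37, RAB38, RAB39B, RAB3C, RAB3D, RAB40A, RAB40AL, RAB41, RAB42, RAB44, RAB6C, RAB6D and RAB7B. Among these, RAB27A and RAB27B are known from secretory granules and melanosomes, RAB26, RAB37 and RAB3D from granule secretion, RAB38 from melanosomes, and RAB17 and RAB25 from epithelial cells. Their relatives RAB3A, RAB3B, RAB11A and RAB11B had peaks, as did all 3 RAB5 genes.

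Most RAB genes with a peak recurred across lists, much as other genes did. Of the 40 genes, 30 had a peak in 2 or more lists (75%), against 72.7% of all protein-coding genes with a peak. In 5 or more lists there were 12 (30%, against 25.1%), and in 8 or more there were 3 (7.5%, against 5.68%). The 3 were RAB6B, a Golgi RAB enriched in brain, with 9 lists, and RAB5C, an early endosome RAB, and RAB13, which acts in traffic to epithelial junctions, with 8 lists each. By compartment, 9 genes with a peak act at the ER and Golgi, 13 at early and recycling endosomes, 5 at late endosomes and lysosomes, 6 in secretion and at the plasma membrane, and 7 elsewhere. A region called in both replicates of a condition occurred in 4, 6, 2, 2 and 1 of these.

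**Figure D1:**
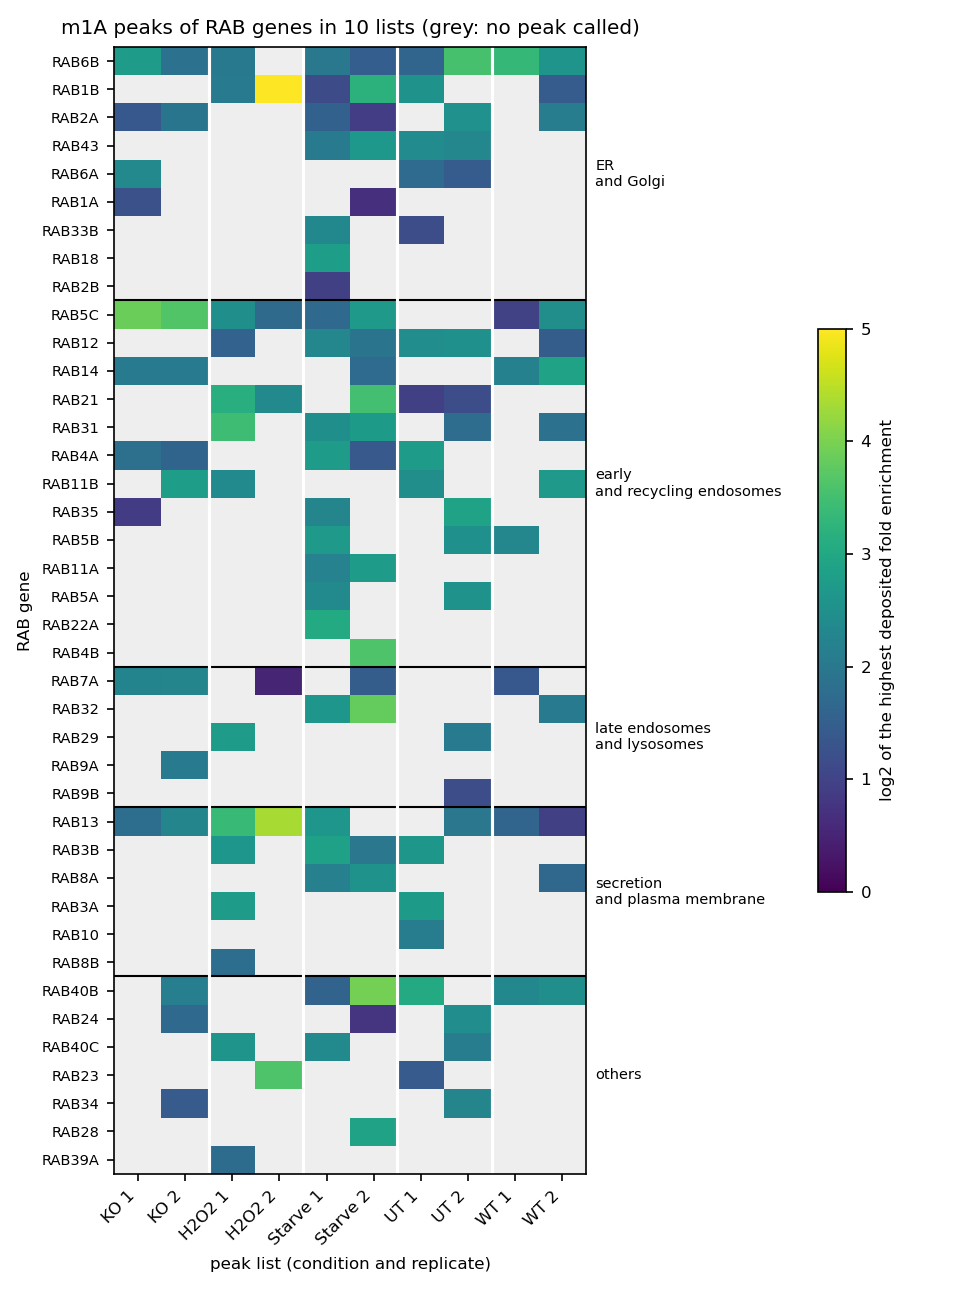
Each row is 1 of the 40 RAB genes with a peak, grouped by compartment, and each column 1 of the 10 peak lists. The colour is the log2 of the highest deposited fold enrichment of the gene's peaks in that list, and grey means that no peak was called. RAB6B is filled in 9 of 10 columns, whereas RAB43 is filled in the Starve and UT columns alone.

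A peak call was counted as repeated when both lists of a condition held peaks that overlapped by 1 nt or more on the same transcript. In KO, 7 of 15 RAB genes with a peak had such a region (46.7%; 53.4% of all genes with a peak in KO). In H2O2 there were 2 of 16 (12.5%; 11.4% of all genes), and in Starve 9 of 29 (31.0%; 15.1% of all genes). In UT there were 3 of 25 (12%; 14.5% of all genes), and in WT 4 of 14 (28.6%; 24.8% of all genes). Starve was the condition in which the RAB share lay farthest above that of all genes.

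Counted by region, 11 of 30 RAB regions repeated in KO (36.7%, Wilson 95% interval 21.9 to 54.5), 2 of 37 in H2O2 (5.41%, 1.5 to 17.7), 14 of 78 in Starve (17.9%, 11 to 27.9), 5 of 52 in UT (9.62%, 4.18 to 20.6) and 4 of 21 in WT (19.0%, 7.67 to 40.0). Over all regions the shares were 51.2%, 8%, 8.79%, 9.42% and 21.4% in the same order. The share over all regions lay inside the RAB interval in H2O2, UT, WT and KO, and below it in Starve. These intervals cover counting error only and treat regions as separate, although 19 RAB genes had peaks on more than 1 transcript, which repeat the same signal. With 1 transcript per gene, the Starve share was 23.1% (12.6 to 38.3). With an overlap of 50 nt it was 12.2%, and with only peaks of a fold of 4 or more 5.36%. The share over all regions was not computed in these settings, so the Starve difference could not be followed there.

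A repeated region holds overlapping peaks, so its summits lie near each other by construction. The gap between the summits of the 2 replicates had a median of 22.5 nt over 36 RAB regions, with a range between 0 and 165 nt, against a median of 14 nt over all 7283 repeated regions. It was at most 50 nt in 24 of the RAB regions (66.7%; 83.5% of all repeated regions). RAB5C in KO (nt 154 in both lists) and RAB14 in WT (nt 336 in both) had no gap at all.

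Most repeated RAB regions were 5′ regions. The summit of a region was that of its peak with the highest pileup. A summit within 300 nt of the transcript start was found in 32 of 36 repeated RAB regions (88.9%, Wilson 95% interval 74.7 to 95.6), against 65 of 182 RAB regions called in 1 list (35.7%, 29.1 to 42.9). Over all genes the shares were 70.8% and 31.8%. With 1 transcript per gene, they were 84% of 25 repeated RAB regions (65.3 to 93.6) and 42.6% of 94 in 1 list (33 to 52.6). A gene could still enter from several conditions, since 8 of the 15 repeated RAB genes were repeated in 2 or more. The intervals over pooled conditions treat such regions as separate. The repeated regions outside this limit were those of RAB14 in KO and WT, of RAB12 in UT and of RAB3B in Starve. The counts ran the same way in every condition: 10 of 11 repeated against 12 of 19 unrepeated regions in KO, 2 of 2 against 8 of 35 in H2O2, 13 of 14 against 18 of 64 in Starve, 4 of 5 against 20 of 47 in UT, and 3 of 4 against 7 of 17 in WT. With a limit of 100 nt, few summits of either kind qualified (8.33% against 9.89%), so the difference came from summits between 100 and 300 nt.

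**Figure D2:**
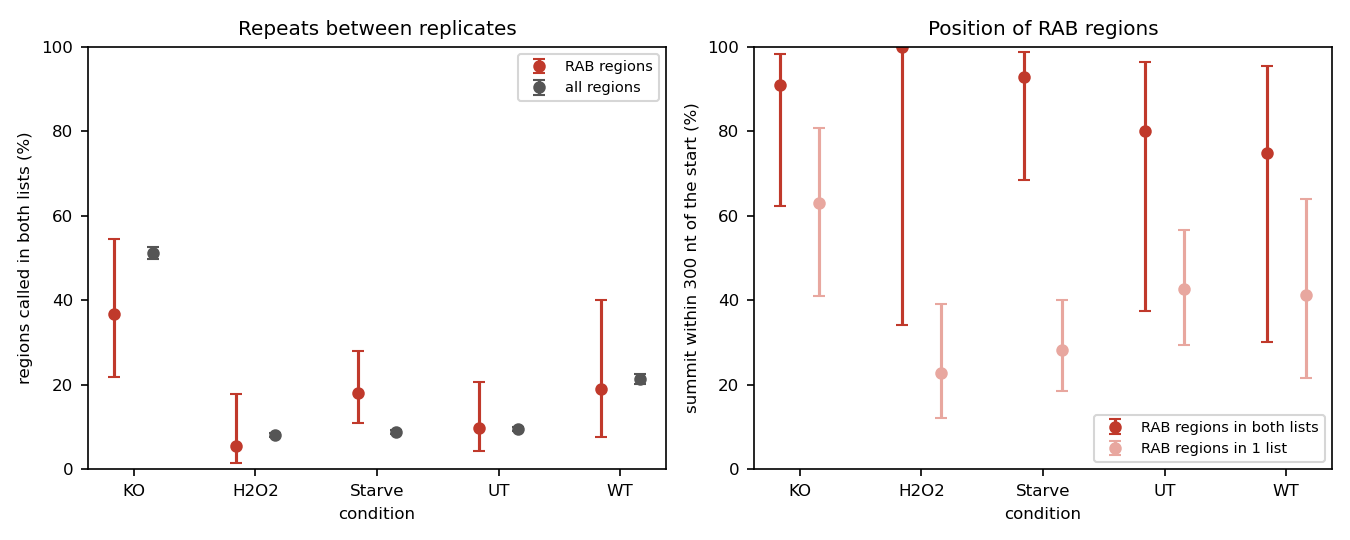
Left, the percent of RAB regions and of all regions that both lists of a condition held; right, the percent of RAB regions with a summit within 300 nt of the transcript start, for regions in both lists and in 1 list. Points are shares and bars Wilson 95% intervals; at right the points for both lists stand above those for 1 list in each of the 5 conditions.

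The comparison of KO with WT covered 21 RAB genes. A KO-only region, held by both KO lists and neither WT list, occurred in 3 of them, RAB13, RAB4A and RAB7A (14.3%; 18.9% of all 3903 genes with a peak in these lists). A WT-only region occurred in 0 of 21 (5.2% of all genes). RAB13, RAB14 and RAB6B had a region in all 4 lists, as did 8.35% of all genes. With 2 lists against 2, no exact test of a single region can reach 0.05, so no region was tested, and the RAB share with a KO-only region was below that of all genes.

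RAB7A, which drives the fusion of late endosomes with lysosomes, had its KO-only region at nt 75 to 279 of NM_004637. The deposited fold enrichment was 4.79 and 4.85 in the KO lists, with pileups of 586 and 611 and summits at nt 144 and 151. No other list called this region. Outside KO, RAB7A peaks lay far downstream, with summits at nt 957 in the second H2O2 list (fold 1.44), nt 891 in the second Starve list (fold 2.78) and nt 957 in the first WT list (fold 2.61). RAB7A was thus the gene whose 5′ region was held by KO lists alone, while a stretch between nt 798 and 1081 was called once each in H2O2, Starve and WT and never in KO.

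RAB4A, which acts in rapid recycling from early endosomes, had a KO-only region at nt 90 to 267 of NM_001271998, with folds of 3.59 and 3.08 and pileups of 127 and 134 in the KO lists. No RAB4A peak of any kind was called in WT. The same 5′ region was called in both Starve lists, with folds of 2.65 and 2.65 and pileups of 172 and 167, and in neither UT list. The first UT list held a RAB4A peak at nt 444 to 585 instead, with a fold of 5.03. RAB4A was the 1 RAB gene that appeared both as KO-only and as Starve-only. Its other transcripts, NM_004578 and NR_073545, repeated both calls with lower folds, between 2.20 and 2.76.

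RAB13 shows how a call can depend on the transcript. On NM_002870 the KO lists held a region at nt 54 to 192 with folds of 3.5 and 2.59, and neither WT list did. On NR_073553 the KO folds were 3.43 and 4.82, and the WT lists also held the region, with folds of 3.11 and 1.92. RAB13 therefore counted as KO-only on 1 transcript and as shared on another. The highest RAB13 folds came from H2O2: 10.5 at a summit of nt 123 in the first list and 20.4 at nt 786 in the second, on NR_073553. The 2 H2O2 lists thus placed their RAB13 peaks at separate parts of the transcript, and they did not count as repeated.

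RAB5C had the strongest repeated RAB peak in KO. On NM_004583 its region at nt 75 to 358 had folds of 14.7 and 12.5 and pileups of 919 and 774 in the KO lists, with the summit at nt 154 in both. These folds exceeded those of 99.3% and 99.0% of the peaks in their lists. The second WT list held a shorter peak there (nt 88 to 200) with a fold of 5.57 and a pileup of 352, and the first WT list held none there. RAB5C was therefore not KO-only. It became so when the second WT list was left out, and RAB4A, RAB7A and RAB13 remained so in that setting. The first Starve list also held a peak in the RAB5C 5′ region (nt 101 to 200), with a fold of 3.27 and a pileup of 137. In H2O2 and in the second Starve list the RAB5C peaks lay downstream, and in UT none was called.

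RAB14, which acts between the Golgi and endosomes, was called at the same place in both genotypes. Its KO folds were 4.09 and 4.16 at summits of nt 348 and 347, and its WT folds 4.61 and 7.33 at nt 336 in both lists. The pileups were 416 and 420 in KO, against 399 and 1072 in WT. The second Starve list also held the region, with a fold of 3.38, and no H2O2 or UT list did. RAB2A, which acts between the ER and the Golgi, had folds of 2.61 and 3.84 in KO, and in WT 4.35 in the second list alone. RAB40B, which recruits a ubiquitin ligase through a SOCS box, was called in both WT lists (5.04 and 5.60) and in the second KO list (4.39).

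RAB6B was the most widely called member. The folds on NM_016577 were 6.69 and 3.69 in KO, 4.02 and 2.82 in Starve, 3.09 and 11.7 in UT, and 10.1 and 6.02 in WT. The first H2O2 list held it with 4.08, and the second did not. The summits lay between nt 84 and 137 for these 9 peaks. In KO and in WT the summits agreed within 1 nt (nt 106 and 105 in KO, nt 102 and 103 in WT), while the order of the folds between replicates differed by condition.

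**Figure D3:**
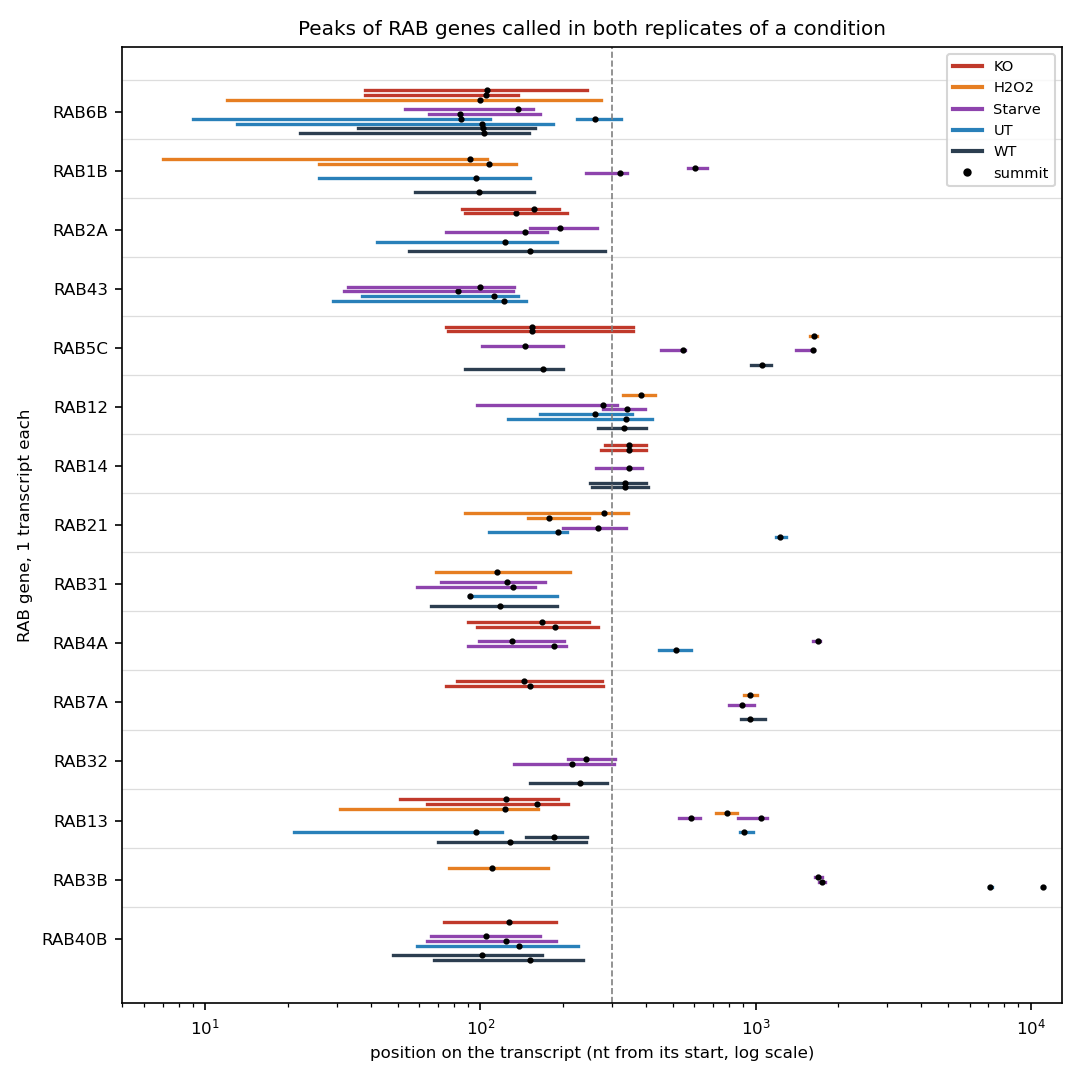
Peaks of the 15 RAB genes with a repeated region, drawn on 1 transcript each; lines run from the start to the end of a peak and dots mark summits, on a log axis of nt from the transcript start, with conditions by colour. Most lines lie left of the dashed 300 nt mark; the RAB7A peaks outside KO and the RAB3B peaks in Starve and UT lie right of it.

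Comparisons with UT rest on the naming of the lists. The descriptions of the UT libraries point to the Starve lists, and the peak names inside the UT lists carry the letters WT, so which lists are UT was taken from their file naming. H2O2 against UT covered 29 RAB genes. An H2O2-only region occurred in 0 of them (2.33% of all genes), and a UT-only region in 1, RAB43 (5.49% of all genes). No RAB gene was held by all 4 lists.

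Repeated H2O2 regions were found in RAB1B and RAB21, but neither was H2O2-only. RAB1B, which acts in traffic between the ER and the Golgi, had folds of 4.14 and 32.1 in the H2O2 lists at summits of nt 92 and 107, and the first UT list held the region with 5.89. The fold of 32.1 was the highest of any RAB peak, in the list whose median fold over all peaks was 8.27, against 4.79 in the first H2O2 list. RAB21, which acts in integrin traffic, had folds of 8.84 and 5.22 in H2O2, against 1.94 in the first UT list at that place. The second Starve list also held a RAB21 peak there, with a fold of 11.3, so the region was not limited to H2O2. The fold of that UT peak of RAB21 exceeded 3.07% of the peaks in its list, and RAB21 counted as H2O2-only with a fold of 4 or more, with −log10 q-values from 5 upward, or with the same number of top peaks from each list (1 gene in each setting).

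RAB43, a Golgi RAB, was called in all 4 Starve and UT lists and in none of the others. On NM_001204887 the folds were 3.33 and 6.02 in Starve, at summits of nt 100 and 83, and 5.26 and 4.52 in UT, at nt 112 and 122. The pileups were 32 and 59 in Starve and 57 and 37 in UT. The medians over all peaks of these lists were 51 and 110 in Starve and 56 and 44 in UT. RAB43 was therefore UT-only against H2O2 and also UT-only against WT, a pair that are both untreated wild-type cells by the labels. With the same number of top peaks from each list, RAB43 lost both calls and RAB12 was the 1 UT-only gene in each comparison.

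Starve against UT covered 37 RAB genes. A Starve-only region occurred in 3, RAB32, RAB3B and RAB4A (8.11%; 5.34% of all genes), and a UT-only region in 0 (4.06% of all genes). RAB12, RAB43 and RAB6B were held by all 4 lists, as were 3.18% of all genes. Which RAB genes counted as Starve-only moved with the processing: RAB31 and RAB32 did so with a fold of 4 or more, and RAB3B did not when an overlap of 50 nt was asked for. By whole genes, RAB3B and RAB4A lost the call and the 4 Starve-only genes were RAB11A, RAB32, RAB5C and RAB8A. Leaving out 1 list of 4 gave between 4 and 15 Starve-only RAB genes. That relaxes the rule for every gene, and the share over all genes was not computed in these settings.

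RAB32, which acts in the formation of lysosome-related organelles, had folds of 6.16 and 14.2 in the Starve lists at nt 133 to 308 of NM_006834, with pileups of 60 and 140. No UT peak was called on RAB32. The second WT list held the same region with a fold of 4.18, so the region was not limited to starved cells. RAB3B, which acts in regulated secretion, had the 1 repeated RAB region far from the 5′ end: nt 1641 to 1796 of NM_002867, with folds of 7.25 and 3.96 and summits at nt 1687 and 1738. The first UT list held RAB3B peaks farther down, at summits of nt 7118 and 11075.

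Other RAB genes repeated in Starve were also called outside it. RAB12, which acts in the degradation of recycling cargo, had folds of 4.99 and 3.79 in Starve and 5.46 and 5.72 in UT. RAB31, which acts between the trans-Golgi network and endosomes, had folds of 5.66 and 6.63 in Starve, and 3.45 in the second UT list and 10.96 in the first H2O2 list. RAB40B had folds of 3.03 and 15.5 in Starve, and 8.27 in the first UT list. RAB2A had folds of 2.92 and 1.88 in Starve, and 5.78 in the second UT list.

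UT against WT covered 30 RAB genes and compared untreated wild-type cells from separate experiments. RAB43 was UT-only (1 of 30; 6.58% of all genes) and RAB14 was WT-only (1 of 30; 2.98% of all genes). RAB6B was the RAB gene held by all 4 lists, as were 3.94% of all genes. In either direction, a group-only region was held by 2 of 30 RAB genes between these untreated groups (6.67%; 9.45% of all genes). Between KO and WT it was held by 3 of 21 RAB genes (14.3%; 23.9% of all genes), between H2O2 and UT by 1 of 29 (3.45%; 7.76% of all genes), and between Starve and UT by 3 of 37 (8.11%; 9.17% of all genes). The RAB share lay below that of all genes in each of these comparisons.

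The remaining 25 RAB genes with a peak had no region repeated within a condition, and 10 of them had a peak in a single list. The 5 with the highest fold were RAB23, which in mice restrains Hedgehog signalling (12.4 in the second H2O2 list), RAB4B (12.3, second Starve list), RAB22A of early endosomes (8.28, first Starve list), RAB28, known from cilia (7.39, second Starve list), and RAB35, which acts in recycling to the plasma membrane (7.38, second UT list).

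The windowed files give coverage of demethylase-treated and of untreated IP material across a region, scaled by the authors to a sum of about 200 over each region. A window value is therefore a share of the region's own coverage, and it cannot show a loss over the whole region. RAB windows were present for RAB13, RAB14, RAB2A, RAB4A, RAB5C, RAB6B and RAB7A in KO and for RAB14, RAB40B and RAB6B in WT. The treated columns of the 2 replicate files of a genotype were the same profile: their ratio was constant along the transcript (SD of the log2 ratio under 0.001) in 771 of 774 transcripts in KO and 351 of 352 in WT, whereas the IP columns had a constant ratio in 0. The treated profile was counted as 1 sample per genotype, so a treated value has no replicate, and the tests assume that it varies as the IP samples do.

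RAB6B was the RAB gene with windows at identical positions in both files. Treated against IP, limma called 0 of 27 RAB6B windows in KO and 0 of 30 in WT at an adjusted p of 0.05, as it called 0% of 28056 and 0% of 12810 windows over all genes. Without adjustment, limma p was under 0.05 for 0 higher and 1 lower RAB6B window in KO, and for 0 higher and 5 lower in WT. Over all genes this held for 1986 higher and 3043 lower of 28056 windows in KO. In WT it held for 988 higher and 1785 lower of 12810, so such lower windows were common outside RAB6B too. Since the labels do not tie replicates to separate cultures, these p-values measure the spread between 2 IP samples, which may be technical. The spread also holds the scaling, since the RAB6B region ran over nt 1 to 250 in the first KO file and nt 1 to 145 in the second, each scaled to the same sum. In WT it ran over nt 1 to 165 and nt 1 to 155.

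The 5 WT windows lay at the 5′ side of the peak. At nt 31 to 40 of RAB6B the treated coverage was 1.46 and 2.35 in the KO files, which hold 1 profile at separate scales, against 0 and 0 in the WT files. IP coverage there was 2.0 and 3.99 in KO, against 2.02 and 3.88 in WT. The log2 ratio of treated over IP, with 1 added to each, was −0.41 in KO and −1.94 in WT, a difference of 1.53 (SE 0.66, limma adjusted p = 0.384). Windows at nt 21 to 30 (1.32, limma adjusted p = 0.363) and nt 26 to 35 (1.48, adjusted p = 0.379) gave like differences, and the WT treated coverage was 0 there too. The difference did not extend to the next window: at nt 36 to 45, where treated coverage was 1.65 and 2.66 in KO against 2.44 and 2.50 in WT, it was 0.0067 (limma adjusted p = 0.998). At nt 51 to 60 it was −0.51 (limma adjusted p = 0.654). None of 28 RAB6B windows was called between KO and WT by limma, and none had an unadjusted p under 0.05; over all genes, 0.736% of 2852 windows were called higher in KO and 0.14% lower, 0.877% in all. Farther along, at nt 131 to 140, treated coverage exceeded IP in both genotypes, with log2 ratios of 0.27 in KO and 0.41 in WT.

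**Figure D4:**
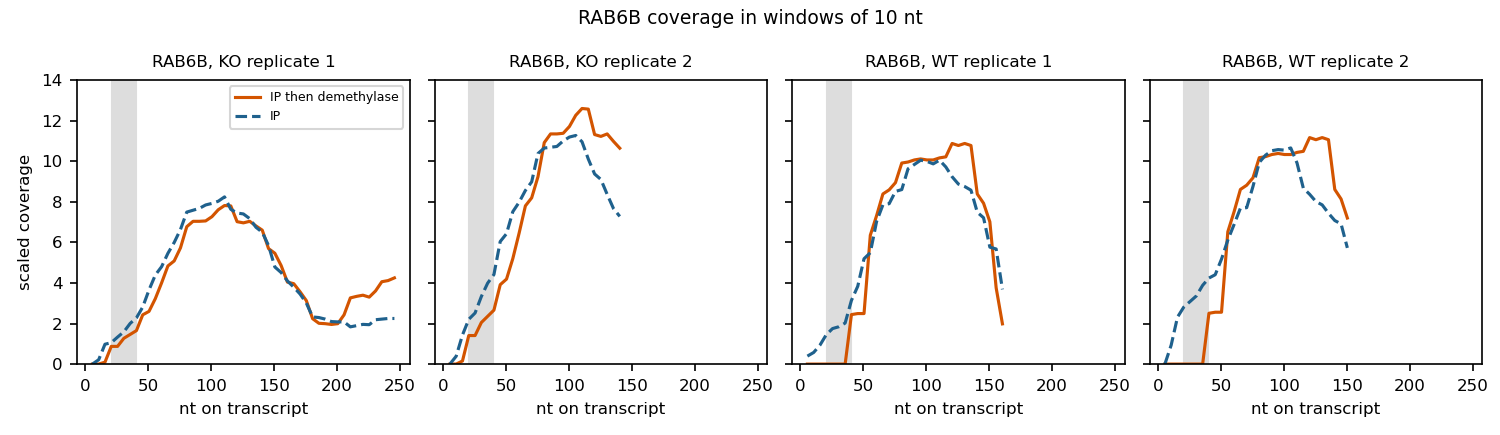
Scaled coverage of RAB6B in windows of 10 nt against the position on the transcript, for demethylase-treated IP (solid) and IP (dashed), in the 2 KO files and the 2 WT files; the grey band marks nt 21 to 40. In the windows that lie within the band, treated coverage is 0 in both WT files and above 0 in both KO files. The WT treated line rises in the right part of the band, toward the window at nt 36 to 45. The 2 files of a genotype hold the same treated profile at separate scales.

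For the other genes the coverage centres of treated and IP material were compared within a file, as a description. The difference was negative where the treated centre lay nearer the 5′ end. Both files of a genotype hold 1 treated profile, so agreement between them is not a repeat of the treated side. For RAB7A in KO the treated minus IP difference was −13.2 and −15 nt. For RAB4A on NM_001271998 it was −11.5 and −30.4 nt, and for RAB13 on NM_002870 −11.6 and −18.2 nt. On the other RAB4A transcripts it was −11.1 and −15.5 nt (NM_004578) and −5.55 and −13.4 nt (NR_073545). On NR_073553, where RAB13 was also called in WT, the difference was −1.28 and −7.67 nt. For RAB2A in KO it was 7.62 and 13.3 nt, and for RAB5C −2.63 and −4.92 nt. Over all KO regions the middle 50% of the differences ran between −7.02 and 6.97 nt in the first file and between −6.87 and 6.80 nt in the second. RAB7A, NM_001271998 and NM_004578 of RAB4A and NM_002870 of RAB13 lay below that range in both files, whereas NR_073545 and NR_073553 lay below it in the second file alone. RAB2A lay above that range in both files, as did RAB6B (10.9 and 7.61 nt). RAB5C and RAB14 lay inside it in both, so the differences did not run 1 way.

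RAB14 had windows in both genotypes. Its treated minus IP difference of centres was −1.81 and −2.12 nt in the KO files, and 12 and 8.42 nt in the WT files. In RAB14 the treated and IP curves of KO nearly coincided. In WT the treated curve was the lower one on the 5′ side and the higher one on the 3′ side. Since each region is scaled to a fixed sum, a deficit on 1 side goes with an excess elsewhere. At the window of the largest deficit, treated coverage was 0.846 against 4.29 in IP in the first WT file (nt 256 to 265) and 1.98 against 4.20 in the second (nt 264 to 273). The largest deficits of RAB14 in KO were smaller, at 5.54 against 6.44 and 5.51 against 6.90. Treated and IP coverage also lay farther apart in WT over all regions: the largest excess of treated over IP coverage in a region had a median of 2.40 and 2.41 in the KO files, against 4.30 and 4.28 in the WT files. For RAB14 that excess was 1.19 and 1.41 in KO, against 4.47 and 3.01 in WT. The WT excess lay at nt 356 to 365 in the first file and at nt 354 to 363 in the second. For RAB6B the treated minus IP difference of centres was 10.9 and 7.61 nt in KO and 4.73 and 10.1 nt in WT, over regions of unequal length (given above). For RAB40B in WT the difference was 17.4 and 15.4 nt. Over all WT regions the middle 50% ran between −13.8 and 9.82 nt in the first file and between −18.9 and 7.49 nt in the second. RAB14 and RAB40B lay above that range in both files, and RAB6B in the second file alone. The WT files also share 1 treated profile, so they are not separate measurements of the treated centre.

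**Figure D5:**
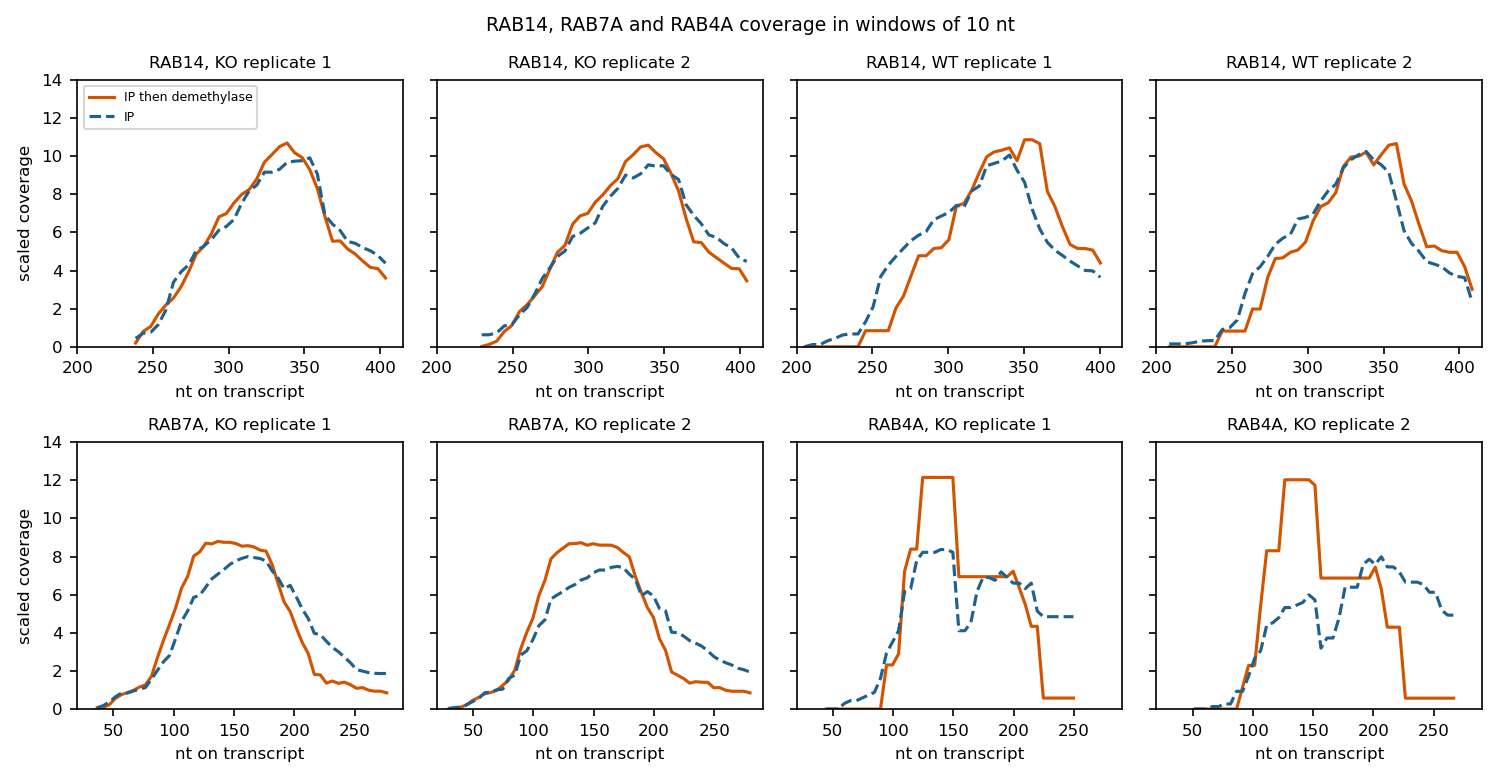
Scaled coverage in windows of 10 nt against the position on the transcript for demethylase-treated IP (solid) and IP (dashed): RAB14 in the KO and WT files above, RAB7A and RAB4A (NM_001271998) in the KO files below. RAB14 curves nearly coincide in KO. In WT the RAB14 treated curve lies below IP on the 5′ side and above it on the 3′ side. The RAB4A treated curve reaches 12.2 and 12 in the KO files, above the IP curve.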

How the data were processed

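m1A IP peak lists of 5 conditions with 2 replicates each, and 4 windowed coverage files, were analysed. Trim Galore, HISAT, MACS2 and hg19 are listed in the submitters' processing notes. Per the file headers, each list gives MACS2 peaks on RefSeq transcripts, 1 list per replicate, with the deposited pileup (a coverage signal), fold enrichment (a ratio) and −log10 p-value and −log10 q-value. These values are the authors' own, and were used for description, ranking and filtering inside a list alone. The deposited windows hold coverage signal of treated and IP material, in 10 nt windows every 5 nt, and a score equal to treated minus IP. The sources used here do not say how the authors built them or which input served each list.

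Symbols came from a RefSeq table of GRCh38.p14, used for names: 17019 of 17315 transcripts matched (98.3%). Exon, untranslated region and hg19 positions were not used here. Peaks overlapping by 1 nt or more on a transcript were merged; a region was group-only when both lists of a group and neither of the other held it. Total read depth of the libraries is unknown, and intervals (Wilson, 95%) cover counting error only. Windows were fitted with limma 3.58.1 in R 4.3.3 on log2(coverage + 1) over windows at the same position in both files, with a mean above 0, adjusted by Benjamini-Hochberg over all windows. The design had asked for 2 treated replicates; since their columns are 1 profile, the mean entered once, and KO against WT was the interaction of genotype and treatment. This was decided after the values were seen. Steps were tested on simulated data with added differences, and the noise of the simulated windows was set, not taken from these data. This checked the code, and not whether the window test can find differences in these data. Python 3.11.15 was used for the rest.

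The members, compartments and gene lists were chosen with earlier results of these data known. Named were RAB genes repeated in a condition, those with a group-only region or in 8 or more lists in full, and the 5 highest folds of the others. The alternatives tried were a fold of 4 or more, a −log10 q of 5 or more, equal numbers of top peaks, an overlap of 50 nt, whole genes, 1 transcript per gene, other start limits, pseudocounts and filters, and leaving out each list. Some results on genes related to the RAB family are not reported here.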

Additional observations from a re-analysis of the deposited data

How the results depend on the processing

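Of the RAB gene counts, KO-only (3) became 1 with a fold of 4 or more (RAB7A) and 1 by whole genes (RAB4A); with equal numbers of top peaks or 1 transcript per gene it was 2 (RAB4A, RAB7A). H2O2-only (0) became 1 with a fold of 4 or more, a −log10 q of 5 or more or equal numbers of top peaks (RAB21), and 1 by whole genes (RAB5C). UT-only against H2O2 (1) became 2 with a fold of 4 or more (RAB12, RAB43) and 2 by whole genes (RAB43, RAB6A). With equal numbers of top peaks the UT-only gene was RAB12 in place of RAB43, against H2O2 and against WT. Starve-only (3) was 2 with a fold of 4 or more (RAB31, RAB32), 2 with an overlap of 50 nt (RAB32, RAB4A) and 4 by whole genes (RAB11A, RAB32, RAB5C, RAB8A). UT-only against Starve (0) became 1 by whole genes (RAB6A). UT-only against WT (1) became 2 with a fold of 4 or more and 3 by whole genes (RAB21, RAB43, RAB6A), and WT-only against UT (1) became 2 by whole genes (RAB14, RAB5C). Genes repeated in KO went to 3 and in Starve to 3 with a fold of 4 or more, against 7 and 9, and those repeated in H2O2 to 1 with equal numbers of top peaks. The repeated share in Starve was 5.36% with a fold of 4 or more, 12.2% with an overlap of 50 nt and 23.1% with 1 transcript per gene. The share of 5′ summits was 8.33% in repeated and 9.89% in unrepeated RAB regions within 100 nt. Within 200 nt it was 77.8% in repeated and 28.6% in unrepeated ones. Leaving out 1 list gave 3 to 7 KO-only RAB genes (6 and 7 without the first and second KO list, 5 without the second WT list) and 0 to 6 WT-only (6 and 3 without the first and second WT list, 1 without the second KO list). H2O2-only genes numbered 0 to 8 (4 and 8 without the first and second H2O2 list, 2 without the first UT list), against 1 to 12 UT-only (12 and 9 without the first and second UT list, 3 without the first H2O2 list). Starve-only genes numbered 4 to 15 (12 and 15 without the first and second Starve list, 5 without the second UT list), against 0 to 10 UT-only (8 and 10 without the first and second UT list). UT-only against WT numbered 1 to 12 (12 and 10 without the first and second UT list, 2 without the second WT list), against 2 to 5 WT-only (4 and 5 without the first and second WT list, 2 without either UT list). The cause of these moves was not tested, except that leaving out a list asks for fewer calls by construction. The shares over all genes were not computed in these settings, so the RAB counts have no background there. Counting the treated column of each file as a replicate was chosen after seeing the data. With it, limma called 1 lower RAB6B window in KO, and 2 higher and 7 lower in WT. For KO against WT it called 3 higher and 1 lower. The share over all windows was not computed in this setting, so these counts have no background. With the treated profile counted once, limma called 0 in each. Leaving out 1 treated column is no check of this, since the 2 columns hold 1 profile at separate scales. Leaving out 1 IP sample for KO against WT left 1 in that genotype, so no count is given. With windows matched within 2 nt (also chosen later), limma called 0 of all RAB windows in KO and WT. Over all genes it called 0 of 76618 windows in KO and 0 of 28192 in WT. Same-numbered lists share only a number; with the replicate block, the calls were the same by construction (3 KO-only, 0 WT-only). For windows no paired analysis was possible because the treated profile is 1 sample, and leaving out an IP sample left treated against IP without residual degrees of freedom.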

Other observations

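Regulators and effectors of RAB proteins also carried m1A peaks. A peak in any list was found in 23 of 41 exchange factors, 31 of 37 GTPase activating proteins and 41 of 52 effectors (56.1%, 83.8% and 78.8%), against 44.1% of all protein-coding genes. A region repeated within a condition occurred in 6, 5 and 8 of these, against 15 of 40 RAB genes with a peak and 30.0% of all protein-coding genes with a peak. The strongest repeated regions were those of TBC1D16, a GTPase activating protein (folds of 15.0 and 10.1 in KO, nt 18 to 181 of NM_019020), and RABEP1, a RAB5 effector of early endosomes (10.7 and 10.1 in KO, nt 42 to 197 of NM_001291581). SBF1, an exchange factor, had folds of 6.16 and 11 in Starve at nt 3145 to 3487 of NM_002972, far from the 5′ end. DENND4B, an exchange factor with a DENN domain (5.96 and 6.54), TRAPPC5, a subunit of the TRAPP exchange factor complex (5.58 and 8.97), and the RAB effector MICALL1 (4.13 and 6.86) were repeated in Starve. GORASP2, a Golgi stacking protein, had folds of 5.52 and 6.14 in UT, TBC1D15, a GTPase activating protein for RAB7A, 4.51 and 4.80 in WT, and TBKBP1 4.68 and 4.17 in KO.

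CCZ1 and CCZ1B, near-identical genes whose product with MON1 activates RAB7A, had a KO-only region against WT and an H2O2-only region against UT; reads shared between these copies make each of the calls uncertain. KO-only regions were held by 3 of 8 exchange factors (CCZ1, CCZ1B and TRAPPC5), 3 of 12 effectors (APPL2, GORASP2 and RAB11FIP3) and 0 of 10 GTPase activating proteins, against 18.9% of all genes. A WT-only region was held by 1 of 10 GTPase activating proteins (TBC1D15) and by 0 of the exchange factors and effectors, against 5.2% of all genes. Among other small GTPases, KO-only regions were held by 2 of 13 ARF, ARL and SAR genes (ARF1 and ARF5) and 1 of 8 RAS genes (RAP1B), and a WT-only region by 1 of 8 RAS genes (RAP2A). A region repeated within a condition occurred in 8 of 18 ARF, ARL and SAR genes with a peak (44.4%) and 10 of 13 RAS genes (76.9%), against 15 of 40 RAB genes (37.5%) and 30.0% of all protein-coding genes with a peak.

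Limits apply to all of this. There were 2 replicates per condition, the lists differed in length, and an uncalled region has no value. Expression of the RAB genes was not analysed here, so the part of transcript abundance in the calls was not tested. The knockout could not be checked in these files, and the demethylase comparison rests on 1 treated profile per genotype.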
